A study of Mus musculus with 22 samples.

Results

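Genes of lymphatic vessels and of high endothelial venules were followed in mouse mammary tissue that carried newly engrafted breast tumor cells. The 8 genes, chosen by name, were the chemokines Ccl19 and Ccl21a, the addressins Madcam1 and Glycam1, and the lymphatic endothelial genes Prox1, Pdpn, Reln and Mmrn1, out of 52526 gene symbols listed. All 22 libraries came from female C57BL/6J mice aged 7 to 8 weeks that received EO771 cells, a C57BL/6 mammary carcinoma line expressing firefly luciferase, in the left 4th mammary fat pad. Mice had a running wheel on its hub (wheel) or the hub alone (sedentary control) for 2 weeks before engraftment, and PBS liposomes or clodronate liposomes, which deplete phagocytes, by the intravenous route 24 h before engraftment and again at engraftment. Tissue was taken 24 h after engraftment. The groups were control PBS (6 mice), wheel PBS (6 mice), control clodronate (5 mice) and wheel clodronate (5 mice), with 1 library per mouse and all in 1 experiment by the labels. Each library is whole tissue: the host tissue and the engrafted tumor cells are read together, and macrophages that escape clodronate remain.

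High endothelial venules are the vessels through which naive lymphocytes leave the blood and enter lymph nodes. The venule carries sulfated mucins such as GlyCAM-1 that slow the passing lymphocyte, integrin alpha4-beta7 (Itga4, Itgb7) binds MAdCAM-1 in mucosal sites, and the chemokines CCL19 and CCL21 act on CCR7 to arrest the cell and, on lymphatic vessels, to draw dendritic cells into lymph. Lymphatic endothelium is specified by the transcription factor Prox1. This fat pad also houses the inguinal lymph node, and mammary epithelium makes GlyCAM-1 as a milk protein, so Glycam1 can report venules or epithelium. Neither the labels nor the study's methods say whether the node was taken out of the dissected tissue.

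The chemokine genes are the members that reads can least be assigned to. In GRCm38 (GENCODE M21 annotation) Ccl21a lies on chromosome 4 from 42772860 to 42773993 on the minus strand and Ccl19 on chromosome 4 from 42754525 to 42756577 on the minus strand, and each has a further copy of the same name on the unplaced scaffold JH584294.1. The coding sequence of Ccl21a, 399 bases without the stop codon, differed from those of Ccl21b, Gm10591, Gm13304 and Gm21541 at only 2 positions, which are T84A and C194T counted from the first coding base with the base of Ccl21a first. The stretch around the second of these, coding bases 165 to 224, shows how little separates the copies, with the differing base in capitals:
Ccl21a: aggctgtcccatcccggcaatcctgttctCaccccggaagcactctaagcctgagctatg
Ccl21b: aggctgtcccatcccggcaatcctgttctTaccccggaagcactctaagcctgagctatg
Gm10591, Gm13304 and Gm21541 carried the same letters as Ccl21b in this window. The libraries read the 3′ end of a transcript, and there the last 400 bases of the Ccl21a transcript matched Gm13304 and Gm21541 at 99.3% identity over the whole length. The same 400 bases of Ccl19 matched 4 other annotated genes, Ccl19-ps1, Ccl19-ps3, Gm12407 and Gm2564, at 98.97% identity or more over part or all of the length. For Madcam1, Glycam1, Prox1, Pdpn, Reln and Mmrn1, 0 other genes matched at least 25% of the last 400 bases at 97% identity. The search covered annotated transcripts of other names only, so the scaffold copies of Ccl21a and Ccl19 were not compared. Ccl21b and Gm10591 were not among the matches of Ccl21a. Their coding bases 340 to 399 were nevertheless identical to those of Ccl21a, and why they gave no match was not tested.

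The promoters of the addressin genes Glycam1 and Madcam1 are shown because both genes mark venules but only Glycam1 was high in any mouse below. Upstream sequences of 250 bases, from RefSeq on GRCm38.p6, are given 5′ to 3′ on the strand of the gene, with capitals on the motif matches. Glycam1 (chromosome 15, 103562759 to 103565081, minus strand) is shown from chr15:103565082-103565331, and the capitals are its match to the STAT motif TTCNNNGAA, the letters to which STAT5 binds in milk protein genes:
Glycam1: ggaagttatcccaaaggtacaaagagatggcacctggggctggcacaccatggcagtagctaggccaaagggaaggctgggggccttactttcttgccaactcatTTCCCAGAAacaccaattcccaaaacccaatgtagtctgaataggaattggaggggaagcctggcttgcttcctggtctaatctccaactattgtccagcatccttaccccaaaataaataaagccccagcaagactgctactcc
Madcam1 (chromosome 10, 79664559 to 79668537, plus strand) is shown from chr10:79664309-79664558, and its capitals are matches to the NF-kB consensus:
Madcam1: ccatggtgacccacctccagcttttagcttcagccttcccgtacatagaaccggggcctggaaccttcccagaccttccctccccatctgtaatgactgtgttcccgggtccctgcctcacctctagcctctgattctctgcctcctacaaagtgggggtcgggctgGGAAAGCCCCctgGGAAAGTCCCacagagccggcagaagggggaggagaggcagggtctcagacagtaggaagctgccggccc
Glycam1 had 1 match to TTCNNNGAA, beginning at -145 from the gene start, and Madcam1 had 2 matches to the NF-kB consensus, beginning at -83 and -70 and not overlapping. Over windows that also took 50 bases after the start, with both strands searched, 8.30% of 32851 promoters held TTCNNNGAA and 4.51% held the NF-kB consensus. No other member held either motif. Of the other motifs searched, the E-box CACGTG (7.15% of promoters) was in the promoters of Pdpn and Reln, and TATAAA (13.6%) in the more upstream of the 2 promoters listed for Prox1. These are matches of letters and say nothing of binding.

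Values are read counts per 1000000 reads of the library (CPM) as deposited, in which every value below 1 had been raised to 1, called the floor here. Libraries held 13256467 to 20484578 reads, as worked out from the steps between values, which puts the floor at 13 to 20 reads, and 73.4% to 76.0% of genes in a library were at it. Reads mapping to several places made up 16.6% to 19.9% of a library and were listed apart from the genes. Adipocyte and luminal epithelial markers were above the floor throughout, with Adipoq at 865 to 2656 CPM and Krt18 at 34.9 to 213 CPM. Lymphocyte markers split the libraries. The mean log2(CPM + 1) of 12 B and T cell genes (lymphocyte score) was 4.23 to 5.69 in 5 mice and 1 to 1.40 (median 1.10) in the other 17. The 5 were control PBS mouse 2, wheel PBS mouse 3 and wheel clodronate mice 3, 4 and 5, and none was a control mouse given clodronate. Because these mice are spread unevenly over the groups, results are given with and without them, and no test was run on the split itself.

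Ccl19 and Ccl21a, the CCR7 ligands of lymphoid stroma and venules, were at the floor in every mouse. Each symbol had 2 rows, and all 44 values of each were at 1 CPM. The same held for the whole family: 6 symbols of the Ccl21 family (9 rows) and 3 of the Ccl19 family (4 rows) had 0 values above the floor. Their receptor was measured. Ccr7 was 14.9 to 40.3 CPM in the 5 mice with a high lymphocyte score and 1 to 4.62 CPM in the other 17. A gene at the floor can still have had up to 20 reads here, and reads that fit several copies equally are not in any gene's value, a limit whose part in these values was not tested. The neighbour on the opposite strand that overlaps both genes, 4930578G10Rik, was also at the floor in all mice.

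Glycam1 was the member with the widest range, from the floor to 985 CPM, and it split the mice within 3 of the 4 groups. In control PBS mice 1 to 6 it was 1.53, 436, 4.78, 1.99, 1.32 and 1.78 CPM. Wheel PBS mice 1 to 6 had 2.80, 1.81, 943, 1.88, 3.22 and 1.42 CPM. One mouse in each PBS group was thus far above the rest of its group, and the other 10 overlapped. Control clodronate mice 1 to 5 had 2.98, 1.04, 2.02, 1.98 and 1 CPM, and wheel clodronate mice 1 to 5 had 1.72, 3.77, 686, 985 and 499 CPM. All 5 control clodronate mice were low, whereas 3 of the 5 wheel clodronate mice were high. The high libraries were well covered: the lowest, control PBS mouse 2, had 7162 reads of Glycam1 (95% exact interval 426 to 447 CPM, counting error only), while the 17 low mice had at most 73.

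**Figure D1:**
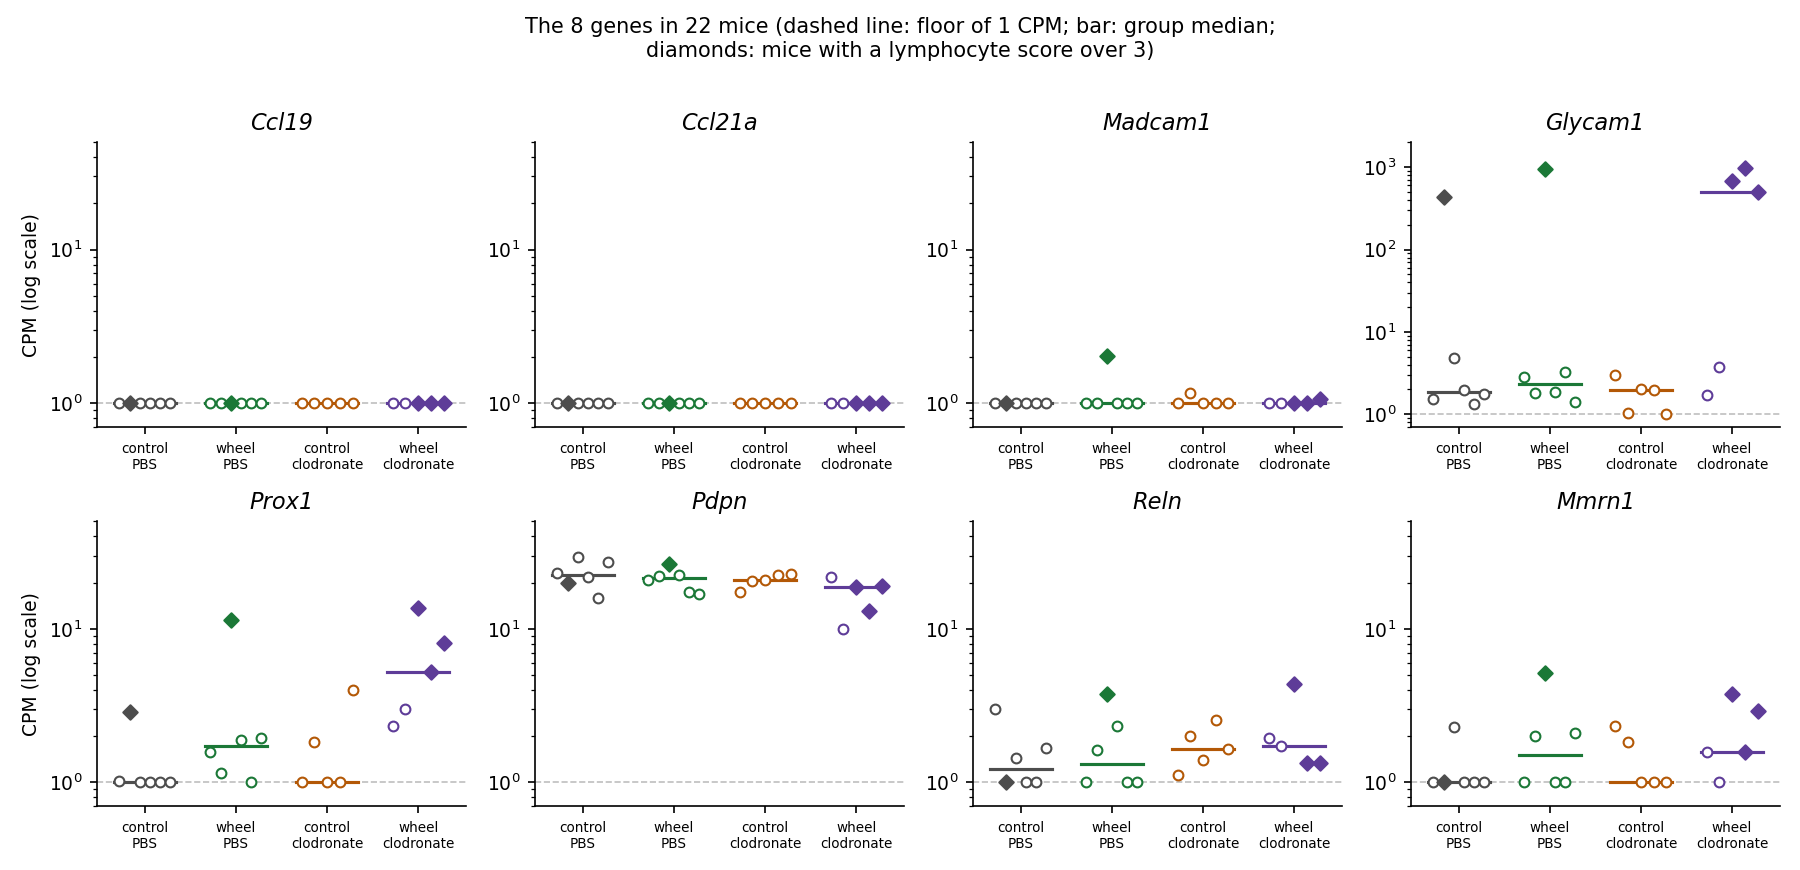
CPM on a log scale of each of the 8 genes in each of 22 mice, by group, with a bar at the group median, a dashed line at the floor of 1 CPM and diamonds for the 5 mice with a lymphocyte score over 3. Glycam1 is at 436 to 985 CPM in the 5 diamonds and at 1 to 4.78 CPM elsewhere, Ccl19 and Ccl21a lie on the floor in all mice, and Pdpn is between 9.92 and 29.5 CPM in all mice.

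The 5 mice with high Glycam1 were the 5 with a high lymphocyte score. Glycam1 was 436 to 985 CPM in these and 1 to 4.78 CPM in the other 17, with no overlap. Being higher in each of the 5 than in all others held for 1 of the 5 members tested (Glycam1) and for 2.59% of the 15138 genes tested. All 12 lymphocyte genes, from which the score was made, did the same. The B cell genes Ms4a1 (CD20), Cd79b and Cr2 reached 146, 143 and 120 CPM in the 5 mice, against at most 1.98, 2.10 and 1 CPM in the others, so that Cr2 was at the floor in all 17. In whole tissue, fewer cells of a type and less RNA per cell cannot be told apart, for Glycam1 as for the markers.

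Epithelial milk genes were not high in the mice with high Glycam1. Csn3 (kappa-casein) was 27.1, 28.7, 26.6, 70.2 and 46.2 CPM in control PBS mouse 2, wheel PBS mouse 3 and wheel clodronate mice 3, 4 and 5, inside its range of 13.6 to 134 CPM in the other 17 mice. Of the 7 milk protein genes, Csn1s1, Csn1s2b, Csn2 and Wap were at the floor in all mice. Lalba, which encodes alpha-lactalbumin, was above it in 2 mice (2.30 and 7.18 CPM in control PBS mouse 5 and wheel PBS mouse 5), both with low Glycam1. Csn1s2a was above it in 1, control PBS mouse 2, at 1.71 CPM. The luminal keratin Krt18 was 70.6 to 133 CPM in the 5 mice, inside the range of the others. Among the 17 mice, the low log2 level of Glycam1 showed no relation to the luminal score that passed a test (Pearson r = -0.38, permutation P = 0.131; Spearman rho = -0.25, permutation P = 0.335; r = -0.08 without the 2 mice farthest from the median of the score) nor the milk score (r = -0.21, permutation P = 0.407; rho = -0.33, permutation P = 0.192; r = -0.16 without the 2 farthest). Both adjusted P were 0.953 for r and 0.987 for rho over 30 relations of 5 members with 6 scores, of which 0 passed. Counting error was wide at these levels: control PBS mouse 1, at 1.53 CPM, had a 95% exact interval of 0.949 to 2.34 CPM. Of the 7 genes in the milk score, 1 was above the floor in at least 5 mice. These tests could therefore have missed a relation.

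**Figure D2:**
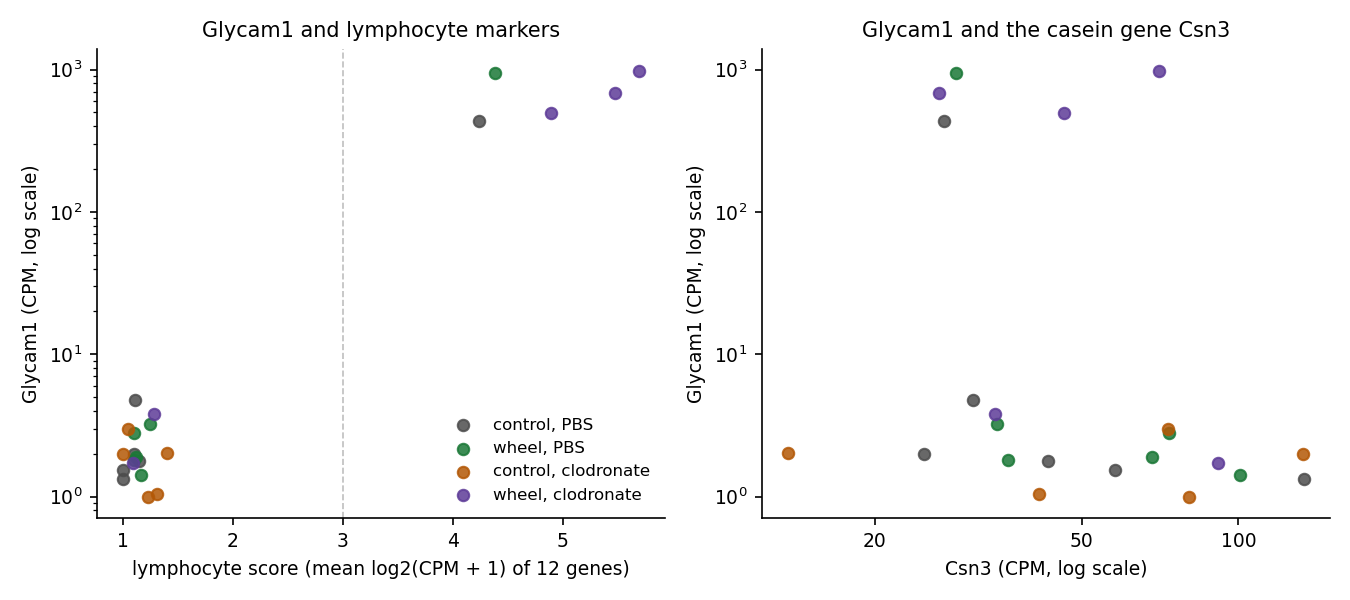
Glycam1 (CPM, log scale) in 22 mice against the lymphocyte score (left; mean log2(CPM + 1) of 12 genes, dashed line at 3) and against the casein gene Csn3 (right; CPM, log scale), colored by group. The 5 mice at 436 CPM or more have scores of 4.23 to 5.69 and Csn3 of 26.6 to 70.2 CPM, within the span of the other mice.

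Madcam1, the mucosal addressin, was close to or at the floor everywhere, including where Glycam1 was high. It was above the floor in 3 mice: 2.03 CPM in wheel PBS mouse 3 (27 reads; 95% exact interval 1.34 to 2.95 CPM), 1.16 CPM in control clodronate mouse 2 (19 reads; 0.697 to 1.81 CPM) and 1.07 CPM in wheel clodronate mouse 5 (20 reads; 0.651 to 1.65 CPM). The last pair of intervals take in the floor. With 3 mice above the floor, Madcam1 did not pass the filter of at least 5 and was not part of the fit across genes. Its log2 level differed between groups by at most 0.10 in the 4 pairwise comparisons, with exact permutation P of 0.455 to 1.

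Prox1 was low but present, and highest in wheel-running mice given clodronate. Control PBS mice had 1.02, 2.86, 1, 1, 1 and 1 CPM, and wheel PBS mice 1.58, 1.15, 11.3, 1.88, 1 and 1.93 CPM. Control clodronate mice had 1, 1.83, 1, 1 and 4.00 CPM, and wheel clodronate mice 2.34, 3.01, 13.7, 5.22 and 8.04 CPM. All 5 wheel clodronate mice were thus above the floor, against 2 of 5 control clodronate mice, 2 of 6 control PBS mice and 5 of 6 wheel PBS mice, and the ranges of the clodronate groups overlapped because of control mouse 5. The 5 mice with a high lymphocyte score had 2.86 to 13.7 CPM and the other 17 had 1 to 4.00 CPM, so that Prox1, unlike Glycam1, overlapped between them. Within the 2 wheel clodronate mice of low score it was 2.34 and 3.01 CPM. Prox1 (chromosome 1, 190118035 to 190170714, minus strand) is overlapped near its start by the antisense gene Prox1os, which was at the floor in all mice.

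Pdpn, podoplanin, a membrane glycoprotein of lymphatic endothelium and of reticular fibroblasts that binds the platelet receptor CLEC-2 (Clec1b), was the only lymphatic member well above the floor in all mice. In CPM, the lowest, median and highest mouse were 15.8, 22.4 and 29.5 among control PBS mice and 16.8, 21.4 and 26.3 among wheel PBS mice. Control clodronate mice had 17.4, 20.6, 20.9, 22.2 and 22.9 CPM, and wheel clodronate mice 21.8, 9.92, 18.6, 13.1 and 19.02 CPM. All 4 groups overlapped, with the lowest values in wheel clodronate mice 2 and 4. The 5 mice with high Glycam1 had 13.1 to 26.3 CPM of Pdpn, inside the range of the others.

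Reln, which encodes the secreted glycoprotein reelin, was between the floor and 4.37 CPM. It was above the floor in 3 of 6 control PBS mice (highest 2.99 CPM), 3 of 6 wheel PBS mice (highest 3.76 CPM), and all 5 mice of each clodronate group (1.12 to 2.53 CPM in control, 1.33 to 4.37 CPM in wheel-running mice). Mmrn1, multimerin 1, a secreted protein of platelets and endothelium, was above the floor in 10 of 22 mice, which were 1 of 6 control PBS mice (2.29 CPM), 3 of 6 wheel PBS mice (1.99, 5.18 and 2.10 CPM), 2 of 5 control clodronate mice (2.34 and 1.83 CPM) and 4 of 5 wheel clodronate mice (1.58, 3.77, 1.58 and 2.93 CPM). Both genes were highest or second highest in wheel PBS mouse 3 and wheel clodronate mouse 3, a pair of the mice with high Glycam1, and Reln was at the floor in another of them, control PBS mouse 2. In the 17 other mice Reln was at most 2.99 CPM and Mmrn1 at most 2.34 CPM.

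Whether wheel running changed these genes was asked first under PBS liposomes. Of the 5 members above the floor in at least 5 mice, 0 passed an adjusted P of 0.05 (limma, Benjamini-Hochberg adjustment over 15138 genes), where 0% of all genes passed. At an unadjusted P under 0.05 the count was also 0 of 5, against 4.91% of all genes. Log2 changes in wheel against control mice were 0.53 (SE 0.40) for Prox1, 0.35 (SE 0.26) for Mmrn1, 0.21 (SE 1.58) for Glycam1, 0.11 (SE 0.25) for Reln and -0.11 (SE 0.19) for Pdpn, all on the log2(CPM + 1) scale, which understates changes near the floor. Each PBS group held 1 mouse of high Glycam1, and without the 5 high-score mice the changes were 0.03 (SE 0.27) for Glycam1, 0.31 (SE 0.22) for Prox1 and 0.10 (SE 0.20) for Mmrn1. With wheel PBS mouse 3 alone left out, the change of Prox1 went from 0.53 to 0.15 and that of Mmrn1 from 0.35 to 0.12.

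Under clodronate liposomes, Glycam1 and Prox1 were higher on average in wheel-running mice than in control mice, but neither passed the adjusted threshold. The log2 change of Glycam1 was 4.97 (SE 1.73, n = 5 per group, limma adjusted P = 0.279), from 1.44 ± 0.42 in control to 6.41 ± 4.18 in the runners (mean ± SD of log2 levels, n = 5 each). That of Prox1 was 1.32 (SE 0.44, n = 5 per group, limma adjusted P = 0.263), from 1.36 ± 0.58 to 2.69 ± 0.87 (mean ± SD, n = 5 each). Of the 5 members, 0 passed the adjusted threshold, against 0.00661% of all genes, and 2 (Glycam1 and Prox1, both higher) passed an unadjusted P of 0.05, against 10.4% of all genes. Exact two-sided permutation tests of these single genes gave P = 0.0317 for Glycam1 and P = 0.0317 for Prox1, where 5 against 5 mice allow no less than 0.00794. These were the only 2 of 24 such tests below 0.05 (6 members, 4 comparisons), and no adjustment over them was made. Pdpn was lower by a log2 of -0.36 (SE 0.21), Reln 0.14 (SE 0.27) and Mmrn1 0.34 (SE 0.29), none of which passed.

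This comparison sets 3 mice with a high lymphocyte score among the 5 wheel clodronate mice against 0 of 5 controls. Without the 5 high-score mice, which leaves 2 wheel clodronate mice, the change of Glycam1 was 0.41 (SE 0.36, limma adjusted P = 0.955) and that of Prox1 was 0.51 (SE 0.28, limma adjusted P = 0.865), and both exact permutation P were 0.333. The lymphocyte score itself was 1.09 to 5.69 (median 4.89) in wheel clodronate mice and 1 to 1.40 (median 1.23) in control clodronate mice, and since it chose the 5 mice its genes were not compared further. How far wheel running itself and the uneven share of these mice contribute cannot be told apart in these groups.

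Clodronate against PBS liposomes gave 0 of 5 members past the adjusted threshold in control mice (0% of all genes) and 0 of 5 in wheel-running mice (0.00661%). In control mice 0 of 5 were below an unadjusted P of 0.05 (6.99% of all genes), and the log2 changes ran from -1.38 (Glycam1, SE 1.66) to 0.20 (Prox1, SE 0.42). The value of Glycam1 rested on control PBS mouse 2 and was -0.19 (SE 0.27) without the 5 mice, when Prox1 stood at 0.36 (SE 0.22). Without control clodronate mouse 5 alone, Prox1 was at -0.036. In wheel-running mice 1 of 5 was (11.6% of all genes): Prox1 was higher with clodronate by a log2 of 0.99 (SE 0.42, limma adjusted P = 0.356), and Glycam1 stood at 3.38 (SE 1.66, limma adjusted P = 0.439). Without the 5 mice these were 0.56 (limma adjusted P = 0.584) and 0.19 (limma adjusted P = 0.913).

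**Figure D3:**
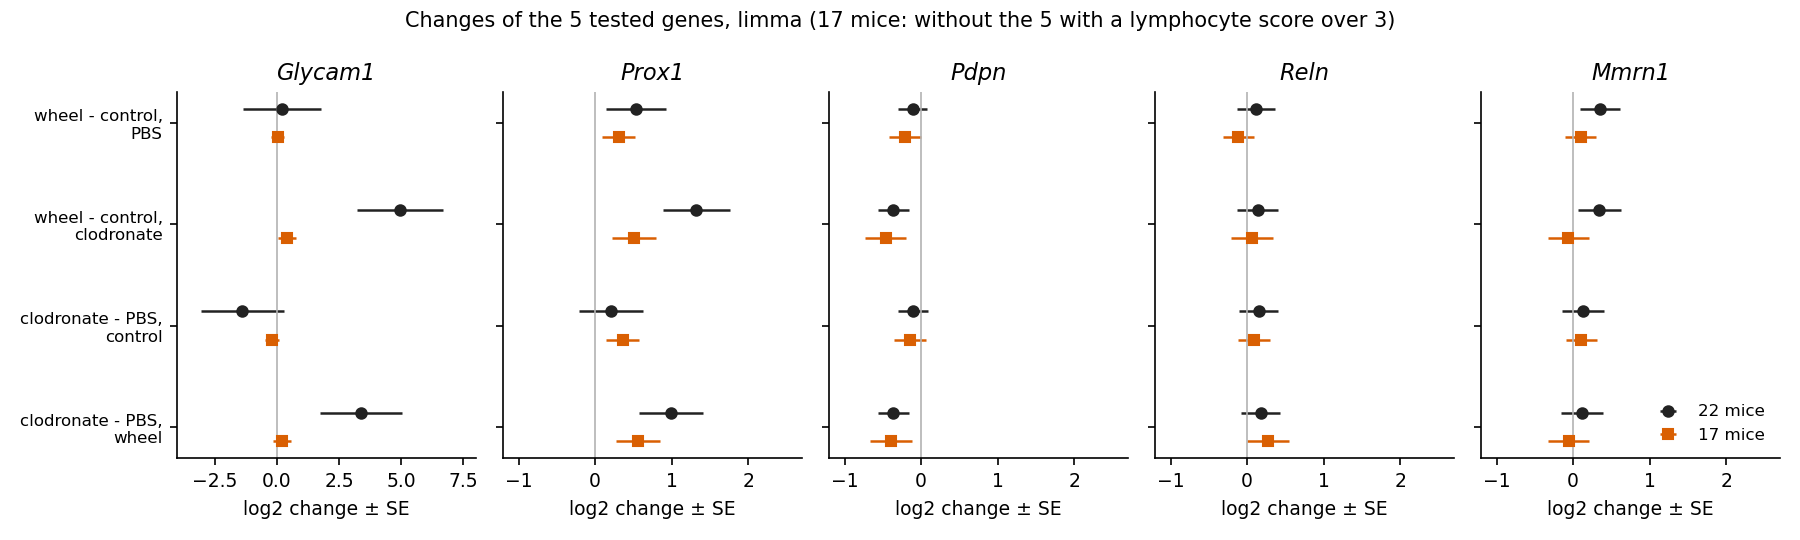
Log2 changes with their standard errors from limma, on the log2(CPM + 1) scale, of the 5 tested genes in the 4 pairwise comparisons, over all 22 mice (circles) and over the 17 mice with a lymphocyte score up to 3 (squares). Glycam1, drawn on a wider axis, falls from 4.97 to 0.41 for wheel against control under clodronate, while Pdpn, Reln and Mmrn1 lie within 0.5 of zero throughout.

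Whether the effect of the wheel differed between liposome treatments was tested as an interaction, and 0 of 5 members passed it (0% of all genes), adjusted or at an unadjusted P of 0.05 (7.58% of all genes). For Glycam1 the interaction was 4.76 (SE 2.34, limma adjusted P = 0.665), and 0.38 (SE 0.45) without the 5 mice. Averaged over liposomes, 0 of 5 passed for wheel against control (0% of all genes), with 2 at an unadjusted P of 0.05 (8.09% of all genes), namely Prox1 at 0.93 (SE 0.29, limma adjusted P = 0.532) and Glycam1 at 2.59 (SE 1.17, limma adjusted P = 0.600). Prox1 kept its direction without the 5 mice, at 0.41 (SE 0.18, limma adjusted P = 0.701), as did Glycam1, at 0.22 (SE 0.23, limma adjusted P = 0.898). Of the 5 members, Prox1 alone was then below an unadjusted P of 0.05, beside 1040 of 15138 genes. Averaged over activity, clodronate against PBS called 0 of 5 (0.205% of all genes), and 0 of 5 at an unadjusted P of 0.05 (10.4% of all genes). Without the 5 mice Prox1 stood at 0.46 (SE 0.18, limma adjusted P = 0.314). It was then the 1 member below an unadjusted P of 0.05, beside 1898 of 15138 genes.

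Some binding partners of the members split the mice as the lymphocyte markers did. Of the integrin pair that binds MAdCAM-1, Itga4 was 11.2 to 36.8 CPM in the 5 mice with high Glycam1 and at most 11.0 CPM in the other 17, and Itgb7 was 12.7 to 37.7 CPM against at most 9.35 CPM, although Madcam1 itself was at or near the floor. These integrin genes were named after their values were seen. Other partners overlapped between the sets of mice: the reelin receptor gene Vldlr was 29.0 to 55.9 CPM in the 5 and 30.4 to 78.7 CPM in the others, and Lgals3 and Lgals8, which encode galectins that bind podoplanin, were 87.3 to 208 and 27.6 to 33.1 CPM against 80.4 to 467 and 15.2 to 39.4 CPM. For wheel against control under clodronate, 10 of 11 partner genes were tested and 0 passed adjustment. At an unadjusted P of 0.05, 3 were higher, beside 7.04% of all genes (1 higher and 1 lower without the 5 mice). The median log2 change was 0.43 (-0.06 without them) beside 0.0045 over all genes. Without the 5 mice, 409 of all 15138 genes were higher and 552 lower at that threshold, with a median of -0.042. These values without the 5 mice also stand beside the lists that follow.

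In the list of the CCR7 chemokine axis, 10 of 13 genes were tested. Cxcl12, the stromal ligand of CXCR4, was above the floor throughout, at 75.4 to 128 CPM in the 5 high-score mice and 37.3 to 109 CPM in the others. Ltbr, the lymphotoxin beta receptor that lymphoid stroma needs, tended the other way, at 23.1 to 37.6 CPM in the 5 against 34.6 to 75.3 CPM. Cxcl13, the follicle chemokine for B cells, was 22.5 to 92.2 CPM in the 5 mice and at most 2.19 CPM in the others. Another lymphoid stromal chemokine was thus well above the floor in mice in which Ccl19 and Ccl21a were at it. The limits given above for reads of Ccl19 and Ccl21a apply to this contrast. Some of the 10 passed the filter of at least 5 mice mostly through the 5 high-score mice. Cxcr5 was above the floor in these 5 only, Ltb in the 5 and 1 other, and Lta in 4 of them and 1 other. The count for this list is therefore not independent of the split of the mice. For wheel against control under clodronate 5 of the 10 were higher and 1 lower at an unadjusted P of 0.05, beside 7.04% and 3.4% of all genes, and 0 without the 5 mice. Among the higher was Ccr7, with a log2 change of 2.41 (SE 0.85, limma adjusted P = 0.281), and the lower was Ltbr, at -0.44 (SE 0.21, limma adjusted P = 0.474).

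Of 17 genes of venules and of addressin synthesis, 14 were tested. Chst4, a sulfotransferase of high endothelial venules that modifies their mucins, was above the floor in 4 of the 5 mice with high Glycam1 (2.92, 9.76, 1.94 and 1.09 CPM in control PBS mouse 2, wheel PBS mouse 3 and wheel clodronate mice 3 and 4) and in 0 of the other 17. Enpp2, which encodes the lysophospholipase autotaxin, was 155 to 204 CPM in the 5 and 56.2 to 177 CPM in the others. The mucins Cd34 and Podxl, which capillary endothelium also makes, were 26.0 to 54.5 and 20.2 to 35.4 CPM in the 5, and reached 103 and 55.1 CPM in the others. Vcam1, named after its values were seen, was 47.0 to 98.7 CPM against 7.11 to 39.4 CPM. Under clodronate 3 of 14 were higher in wheel-running mice at an unadjusted P of 0.05, beside 7.04% of all genes (1 without the 5 mice), with a median of 0.23 (-0.08).

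**Figure D4:**
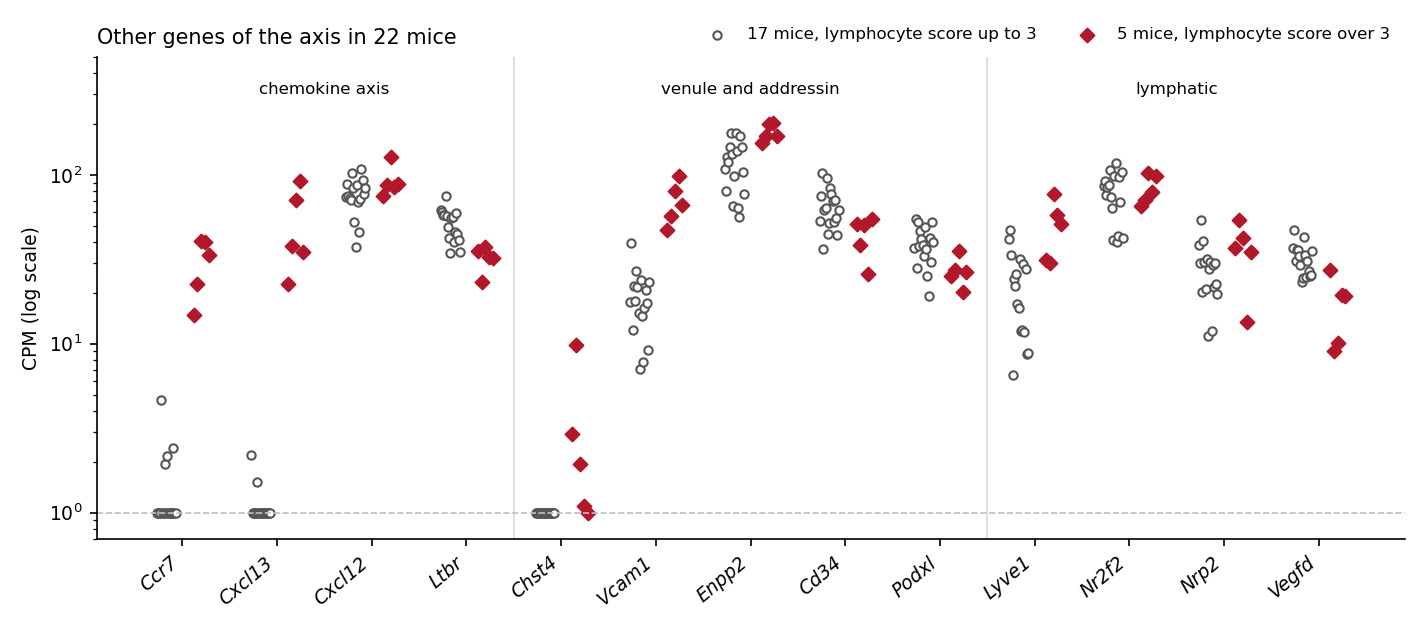
CPM on a log scale of 13 further genes in the 17 mice with a lymphocyte score up to 3 (open circles) and the 5 over 3 (diamonds), in 3 panels by list, with a dashed line at the floor. Ccr7, Cxcl13 and Vcam1 do not overlap between the sets, Chst4 is above the floor in 4 diamonds only, and Lyve1, Nr2f2 and Nrp2 overlap.

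All 18 further lymphatic endothelial genes were tested, and 0 passed adjustment in any of the 7 comparisons. Lyve1, the hyaluronan receptor of lymphatic endothelium that some macrophages also carry, was 30.3 to 76.6 CPM in the 5 mice and 6.51 to 47.0 CPM in the others. Nr2f2, a nuclear receptor that acts with Prox1, was 65.6 to 103 against 40.2 to 118 CPM. Nrp2, a co-receptor for VEGF-C, was 13.5 to 53.9 against 11.1 to 54.2 CPM, and Vegfd, a lymphatic growth factor, 9.09 to 27.2 against 23.4 to 47.1 CPM. The 18-gene mean of log2(CPM + 1) was 2.90 to 3.25 in the 5 mice and 2.53 to 3.07 in the others. For wheel against control under clodronate 2 of 18 were higher at an unadjusted P of 0.05, a share near the 7.04% of all genes (1 without the 5 mice), with a median of 0.21 (0.034). Other cell type lists gave 0 genes past adjustment in all 7 comparisons: milk protein (1 of 7 tested), luminal (10), basal (6), blood endothelial (10), skeletal muscle (10), adipocyte (8), macrophage (11), fibroblast (8) and proliferation (6) genes. The macrophage list, which the clodronate treatment addresses, had 2 of 11 lower and 0 higher at an unadjusted P of 0.05 with clodronate averaged over activity (8.3% of all genes were lower), with a median log2 change of -0.23. The median over all genes was -0.042. In the same comparison the fibroblast and adipocyte lists each had 4 of 8 lower, with medians of -0.44 and -0.41. Lower values were thus not particular to macrophage genes. Without the 5 mice 4 of 11 macrophage genes were lower, with a median of -0.48. Over all genes 1464 of 15138 were then lower, with a median of -0.092. The fibroblast and adipocyte lists had 3 of 8 and 1 of 8 lower there, with medians of -0.38 and -0.34. Differences between these lists were not tested.

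The genes most like each member were ranked by Spearman rho over 22 mice, as a description without a test, among genes that share libraries and depth. For Glycam1 they were Slc14a1 (rho = 0.87), Traj18 (0.82), a T cell receptor joining segment, and Cd209b (0.81), a C-type lectin of marginal sinus macrophages. Slc14a1, a urea transporter, was 2.62 to 9.30 CPM in the 5 mice and at most 2.495 CPM in the others. Prox1 was nearest Tnfaip3 (0.83), Oas1a (0.83) and Nfkbid (0.81), of which Tnfaip3 and Nfkbid are inhibitors or regulators of NF-kB. Pdpn was nearest Ccl6 (0.82), Ppfibp1 (0.81) and Cinp (0.81). Reln was nearest Gm38248 (0.76), 1110038B12Rik (0.75) and Aebp2 (0.74), and Mmrn1 nearest Fam189b (0.76), Dmac2 (0.74) and Tmem191c (0.69). Over the 17 mice of low lymphocyte score Glycam1 was nearest other genes, Gm25188 (0.80), Gm15327 (0.80) and Cntnap1 (0.75), all under 7 CPM there.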

How the data were processed

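RNA of left 4th mammary tissue from 22 mice was read with QuantSeq 3′ FWD libraries, and the labels' processing notes name STAR 2.5.3a and GRCm38. The deposited values are a signal per gene: CPM of all reads, which the authors raised to 1 wherever they were below 1. The 4 rows of reads outside genes were left out, and of repeated symbols (106) the row of highest mean was kept. Reads of genes at the floor could not be recovered, so no count model was used. Genes above 1 CPM in at least 5 mice (15138) were fitted as log2(CPM + 1) with limma 3.58.1 (R 4.3.3): 4 group means, variance trend, Benjamini-Hochberg adjustment, threshold 0.05. Single members were compared by exact two-sided permutation, and correlations used 100000 permutations (SciPy 1.17.1). The fit was tested on simulated data drawn without a set of mice of high lymphocyte score, so that test does not cover the split seen here. Transcript ends were matched with blastn 2.17.0. Intervals are exact (Clopper-Pearson, 95%) and cover counting error only. The members and lists were chosen with earlier results of these data known. Named were all members, the 3 genes of highest mean per list with Ccr7, Chst4 and Lyve1, every list gene past the threshold (none was), and the 3 genes most like a member. Outside this rule, Itga4, Itgb7 and Vcam1 were named after their values were seen. Cxcr5, Ltb and Lta were named to show the limit of the filter, and the milk protein genes were all given. Alternatives were pseudocount, filter, scaling, variance model, groups fitted, a replicate block, and leaving out single mice or the 5 with a lymphocyte score over 3. One further gene is not reported here.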

Additional observations from a re-analysis of the deposited data

Results flagged for a closer look

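Within a group, the highest mouse stood far from the others (Dixon's test, 95%) in 9 of 23 cases in which a member varied within a group. Chance flags about 1 in 20 groups, but in 4 of the 9 all other mice were at the floor, where any value above it is flagged, so the count cannot be set against chance. The high value belonged to 1 of the 5 mice with a lymphocyte score over 3 in 7 of the 9. Glycam1 stood out in control PBS mouse 2 at 436 CPM (other mice 1.32 to 4.78 CPM) and in wheel PBS mouse 3 at 943 CPM (1.42 to 3.22 CPM). Prox1 stood out in the same mice, at 2.86 CPM (1 to 1.02 CPM) and 11.3 CPM (1 to 1.93 CPM). Reln was highest in wheel clodronate mouse 3, at 4.37 CPM (1.33 to 1.93 CPM).

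Madcam1 and Mmrn1 account for the other 4, all in groups whose remaining mice were at the floor. Madcam1 was 2.03 CPM in wheel PBS mouse 3, 1.16 CPM in control clodronate mouse 2 and 1.07 CPM in wheel clodronate mouse 5, and Mmrn1 was 2.29 CPM in control PBS mouse 3.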

How the results depend on the processing

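In every setting run, 0 members passed an adjusted P of 0.05 in any of the 7 comparisons, with a lowest adjusted P of 0.216 over the alternatives and 0.0672 with 1 mouse left out. Of 314 log2 changes under alternatives 306 kept their direction, as did 520 of 550 with 1 mouse left out. Exact tests below 0.05 went from 2 to 1 of 20 without the 5 mice of high lymphocyte score, the 1 being Prox1, wheel against control under PBS (P = 0.0476 by exact permutation). Without these mice, small log2 changes also turned sign: Reln to -0.12 (wheel against control, PBS) and -0.025 (averaged), Mmrn1 to -0.063 (wheel against control, clodronate) and -0.058 (clodronate against PBS, wheel-running), and Glycam1 to -0.00038 (clodronate against PBS, averaged). Upper-quartile scaling turned Pdpn to 0.0030 (clodronate against PBS, control) and the interaction of Reln to -0.042; it moved the median interaction of all genes from 0.091 to -0.0092. Scaling to assigned reads turned the interaction of Mmrn1 to 0.022. The cause was not tested. Correlations among the 17 mice turned for Glycam1 with lymphocytes (-0.030, no pseudocount), Reln with milk genes (0.037, log2(CPM + 5)), and, by upper quartile, Prox1 with adipocytes (0.040) and Mmrn1 with lymphocytes (0.052), luminal (0.019) and milk genes (0.079). With 1 mouse left out, ranges crossed 0 for wheel against control under PBS in Glycam1 (-1.16 to 1.40) and Reln (-0.058 to 0.25), for wheel against control under clodronate in Reln (-0.073 to 0.24), Prox1 for clodronate in control mice (-0.036 to 0.36), Reln (-0.035 to 0.35) and Mmrn1 (-0.046 to 0.35) for clodronate in wheel-running mice, and the interactions of Reln (-0.19 to 0.20) and Mmrn1 (-0.17 to 0.22).

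The labels number the mice alike in each group, but same-numbered mice did not consistently deviate together. Their correlations averaged -0.075 to 0.18 over the 4 comparisons, and single pairs ran from -0.39 to 0.52. With a mouse counted in each comparison it entered, 10 of 42 counts matched their own number best. These were 0 of 12 (wheel, PBS), 4 of 10 (wheel, clodronate), 2 of 10 (clodronate, control) and 4 of 10 (clodronate, wheel-running). With the replicate number as a block, 0 members were called, and calls over all genes for clodronate averaged over activity went from 31 to 11. Over the other alternatives that count ran from 0 (without the 5 mice) to 54 (mean of at least 5 CPM), and with 1 mouse left out from 9 (control clodronate mouse 3) to 146 (control clodronate mouse 1). Calls for wheel against control under clodronate and for clodronate in wheel-running mice, 1 each, were 12 and 14 without the 5 mice, 118 and 28 without wheel clodronate mouse 1, and 236 and 51 without wheel clodronate mouse 2. Clodronate in control mice, with 0, had 38 without control clodronate mouse 1. A count test was not run, since reads of genes at the floor are lost. Depth limits the floor genes: up to 20 reads are not told from 0, so absence of Ccl19, Ccl21a or Madcam1 is not shown.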
